A study of Drosophila melanogaster with 4 samples.

Results

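The subject is 9 genes of Wnt signalling in Drosophila melanogaster embryos, the 5 ligands wg, Wnt2, Wnt4, Wnt5 and Wnt6, the 3 Frizzled receptors fz, fz2 and fz3, and the co-receptor arr (arrow). They were chosen by gene symbol, with earlier results of these data known, and all 9 were found among the 14794 genes of each of 2 deposited tables. Wnt proteins are secreted, lipid-modified signals. At the cell surface they bind a Frizzled receptor together with the LRP-type co-receptor Arrow, which stabilises the beta-catenin Armadillo and lets it act with the factor Pangolin on target genes. In the fly embryo wg (wingless) is best known for patterning the segments of the epidermis, and in the visceral mesoderm it helps to pattern the midgut.

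RNA was sequenced from 4 populations separated by flow cytometry, with 1 library for each. The caudal visceral mesoderm (CVM) cells, which migrate along the gut primordium, and the non-CVM cells came from embryos of stages 10 to 13, and the hemocytes (HC), the migrating blood cells, and the non-hemocytes from stages 12 to 16. The labels give no strain, genotype or reporter for the sort. Each table compares conditions named q1 and q2, which no label ties to a library, so a direction is written as higher in q1 or higher in q2 and the columns of level per condition were not used. Levels are therefore not given, only log2 folds of q2 relative to q1.

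The labelled cell types were checked against their markers. For CVM, the authors' deposited table had 7 of 8 caudal visceral mesoderm markers at least 2-fold toward q1, beside 17.6% of all genes, with the tissue's bHLH regulator HLH54F at -6.04. For HC, it had 7 of 8 measured hemocyte markers at least 2-fold toward q1, beside 13.3% of all genes. The peroxidasin gene Pxn was at -6.35 and the blood GATA factor srp at -3.25, while the clotting gene Hml lay at 1.34. The hemocyte markers He and nimC1 had infinite folds on the q1 side of the authors' deposited table for HC, so they are listed at 0 in q2. No difference here has a replicate check. The depth is unknown, and the error given with a fold is the standard error that the authors' own statistic implies, which covers 2 libraries and no variation between samples.

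The clearest contrast among the ligands was in HC. As deposited, wg, Wnt2 and Wnt6 were each over 4-fold higher in q2 there, and Wnt4 and Wnt5 lay just under 2-fold. The median of all measured genes in HC was itself 0.62. Relative to that median wg, Wnt2 and Wnt6 lay at 1.48, 1.46 and 1.45, and Wnt4 and Wnt5 at 0.35 and 0.33. In CVM Wnt2 alone of the ligands passed 2-fold, and Wnt6 lay on the other side of 0. The receptors fz and fz2 also lay well toward q2 in HC, whereas fz3 and arr stayed near the middle of that table. No member was at least 2-fold higher in q1 of either table.

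The ligand wg, the founding member of the family, occupies chromosome 2L from 7307161 to 7316255 (BDGP5). Its log2 fold was 2.10 in the authors' deposited table for HC, with an implied standard error of 0.68, a 95% interval of 0.76 to 3.44 and a q-value of 0.0247. The CVM fold of wg was 0.87 in the authors' deposited table, with an implied standard error of 0.42, an interval of 0.04 to 1.70 and a q-value of 0.24. Both values lay high among measured genes, at percentile 94.3 in HC and 93.6 in CVM.

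Wnt2, a ligand with roles in the developing gonad and muscle (chromosome 2R, 5381674 to 5390695, BDGP5), was the member with the largest fold in CVM. That fold was 1.16, with an implied standard error of 0.47 and a q-value of 0.119 in the authors' deposited table. In HC its fold was 2.08, with an implied standard error of 0.72 and a q-value of 0.0359 in the authors' deposited table. With wg it was 1 of the 2 ligands called in HC, where called means an authors' q-value under 0.05, a cut set here.

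Wnt6, a neighbour of wg on chromosome 2L (7340437 to 7352280, BDGP5), had folds of opposite sign in the tables. It lay at -0.79 in the authors' deposited table for CVM, where its implied standard error of 0.90 was the widest of the members and its interval ran from -2.56 to 0.98. For HC the authors' deposited table put it at 2.07, within an interval of 0.46 to 3.69, and its q-value of 0.0729 was not under 0.05. The CVM fold was thus within its error of 0, and the sign there is not resolved.

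Wnt4 and Wnt5 act in axon and cell guidance, Wnt5 through the receptor Derailed. Their HC folds were 0.97 (q-value 0.333) and 0.95 (0.366) in the authors' deposited table, and both intervals included 0. Relative to the median of that table they lay at 0.35 and 0.33, at percentiles 63.5 and 62.7 of the measured genes. For CVM the authors' deposited table gave Wnt4 0.62 (q-value 0.512) and Wnt5 0.20 (0.908). Wnt5 lies on chromosome X from 18395573 to 18399436 (BDGP5). Wnt4 shares its locus (chromosome 2L, 7255460 to 7277168, BDGP5) with CG31909, whose folds were of the other sign, at -1.22 in CVM and -1.54 in HC in the authors' deposited table, and the sources used here do not say how reads were divided between the pair.

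**Figure D1:**
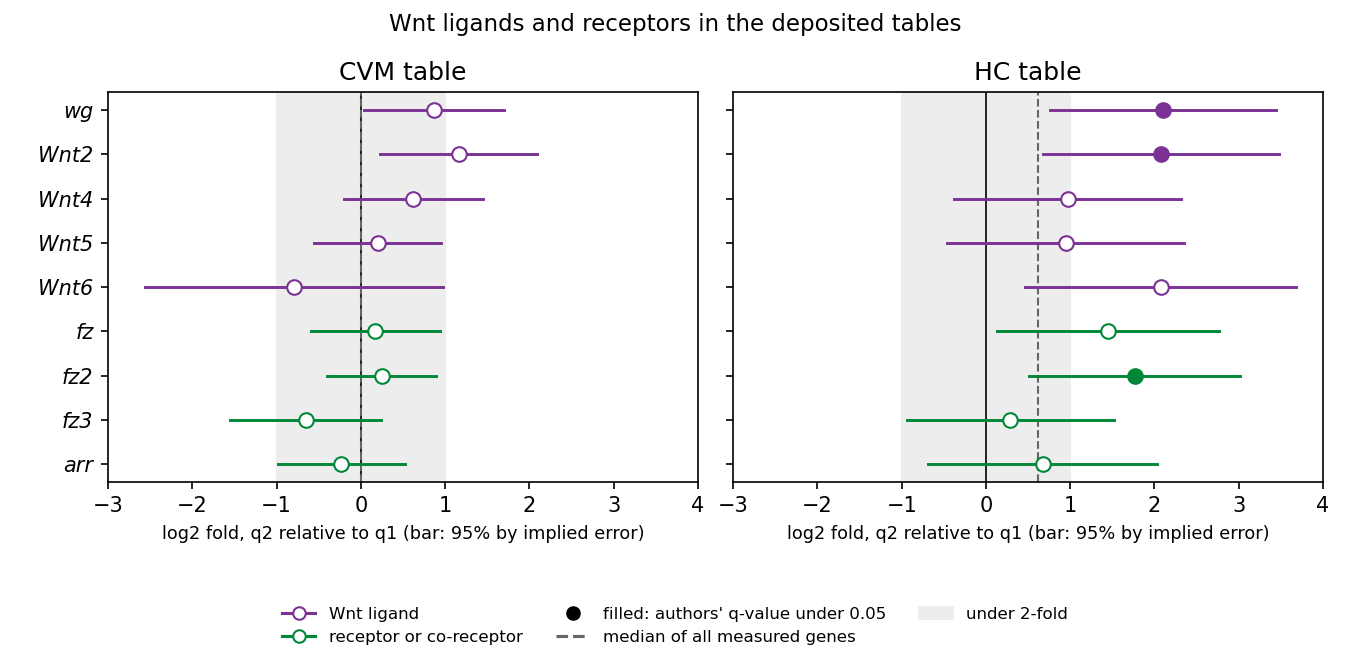
Log2 fold of q2 relative to q1 (horizontal axis) for the 5 ligands and 4 receptors in each deposited table, with bars for the 95% interval by the implied error and filled points for an authors' q-value under 0.05. In HC all 9 points lie right of 0 and 3 are filled, and in CVM 6 lie right of 0 and none is filled.

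Among the receptors, fz2, a high-affinity receptor for Wg, was the only one called. Its fold in HC was 1.76, with an implied standard error of 0.64, an interval of 0.51 to 3.02 and a q-value of 0.0474 in the authors' deposited table. In CVM the authors' deposited table gave 0.25, with an interval of -0.40 to 0.90. The receptor fz, which acts with fz2 in Wg signalling and has its own part in planar cell polarity, followed the same order, with 1.44 (q-value 0.127) in HC and 0.17 (0.927) in CVM in the authors' deposited table. The locus of fz (chromosome 3L, 14267447 to 14361748, BDGP5) also holds CG13482, and that of fz2 (chromosome 3L, 19135998 to 19228191) holds no other gene of the table.

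The receptor fz3, known in the fly as a Wg target that dampens the signal, lay lowest of the 9 in HC. Its fold was 0.29 there (q-value 0.799) and -0.65 in CVM (0.542) in the authors' deposited table. Relative to the median of all measured genes, which was 0.62 in HC, it lay at -0.33. The co-receptor arr had 0.67 in HC (q-value 0.53) and -0.23 in CVM (0.886) in the authors' deposited table, at percentiles 52.3 and 35.8 of the measured genes. The intervals of fz3 and arr included 0 in both tables.

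As groups, the ligands had a median log2 fold of 0.62 in CVM (range -0.79 to 1.16) and the receptors -0.03 (range -0.65 to 0.25). In HC the medians were 2.07 (range 0.95 to 2.10) for ligands and 1.06 (range 0.29 to 1.76) for receptors. Relative to the table's median, the median of all 4 receptors in HC was 0.44. Without fz, whose locus is shared, the receptor median as deposited was 0.67. Ligands and receptors overlapped in range in both tables, and with 5 and 4 genes that are not replicates no test of the difference was made. The median of all measured genes was 0.00 (0.0047) in CVM and 0.62 in HC.

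Set against the whole tables, 1 of 9 members (11.1%) was at least 2-fold higher in q2 of CVM, where 4.58% of 9580 measured genes were, and 0 were at least 2-fold higher in q1, where 17.6% of genes were. Called were 0 members in CVM, beside 0.762% of genes called higher in q2 and 8.49% called higher in q1. Unadjusted p-values of the authors' deposited table for CVM were lowest for Wnt2 (0.0143) and wg (0.0403). In HC 5 of 9 members (55.6%) were at least 2-fold higher in q2, beside 35.4% of 10088 measured genes, and 0 were so in q1, beside 13.3%. Of the 9 members, 3 were called higher in q2 of HC (33.3%), beside 6.84% of genes, and 0 in q1, beside 5.91%. After centring HC on its median, wg, Wnt2, Wnt6 and fz2 remained past 2-fold in q2 (44.4%), beside 16% of genes, and 0 lay past it in q1, beside 22.1%. In HC 9 of 9 members lay above 0, as did 69.9% of all genes.

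**Figure D2:**
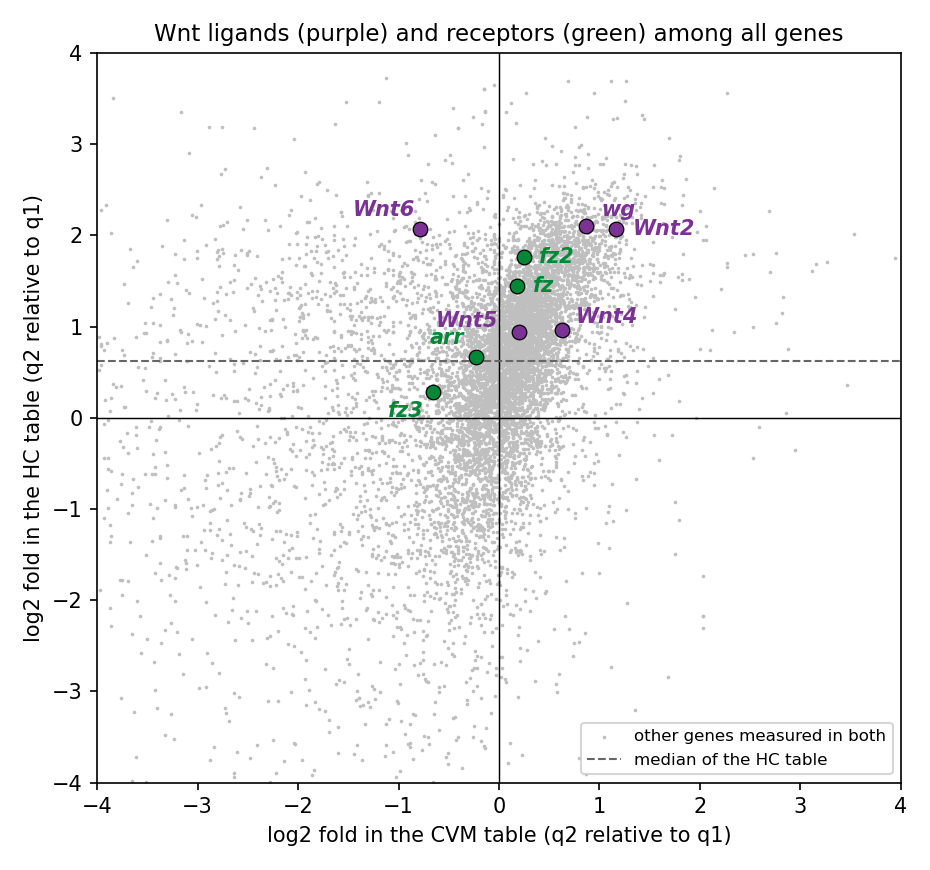
Log2 fold in the CVM table (horizontal axis) against that in the HC table (vertical axis) for the members and for all other genes measured in both (grey), leaving out 300 genes beyond 4 log2 units in either. The ligands wg and Wnt2 sit at the upper right, Wnt6 at the upper left, and fz3 and arr near the dashed median of the HC table.

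As deposited, all 9 members had a higher fold in HC than in CVM, from 0.34 more for Wnt4 to 2.86 more for Wnt6, but with each table centred on its own median Wnt4 turned to -0.27. The median of the deposited difference over 8927 genes measured in both tables was 0.65. By the implied errors the interval of the difference was 0.47 to 5.26 for Wnt6 and 0.10 to 2.93 for fz2, and it included 0 for the other 7. After that centring the intervals of Wnt6 (-0.14 to 4.64) and fz2 (-0.51 to 2.31) included 0 as well. The tables were normalized separately, and the comparisons share no library.

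Markers of other cell types also differed between the conditions. On the q2 side of HC, the authors' deposited table had 5 of 6 epidermal markers (range 0.36 to 2.03, median 1.66) past 2-fold, beside 35.4% of all genes. The same held for 4 of 6 neural ones there (range -0.30 to 2.10, median 1.72), namely elav, pros and the neuroblast genes dpn and wor. The synaptic genes n-syb (0.70) and brp (-0.30) of that list did not pass 2-fold. Epidermal markers in CVM ran from -0.94 for Fas3, which is not restricted to the epidermis, to 1.38 for grh (median 0.57), in the authors' deposited table. The 4 neural markers measured there, again elav, pros, dpn and wor, ran from 0.56 to 1.04 (median 0.82). In CVM n-syb and brp were not measured. Caudal visceral mesoderm markers were past 2-fold toward q2 of HC for 7 of 8 (range -2.41 to 2.11, median 1.68), tracheal ones for 2 of 3 (range -2.20 for Gasp to 2.25) and somatic muscle ones for 4 of 5 (range 0.13 to 2.63, median 1.26), in the authors' deposited table. After centring HC on its median, 4 of 8 caudal visceral mesoderm and 1 of 5 somatic muscle markers remained past 2-fold, beside 16% of genes. The epidermal, neural and tracheal counts were unchanged. Toward q1 of CVM lay 3 of 5 somatic muscle markers past 2-fold (range -5.73 for Mhc to 1.23 for nau), 3 of 8 measured hemocyte markers (range -1.77 to 0.45) and 1 of 3 tracheal ones (Gasp at -2.57), in the authors' deposited table. Over all genes, 17.6% lay past 2-fold on that side. In bulk samples such as these, fewer cells of a type and less RNA per cell cannot be told apart, and the part of these markers in the folds of the ligands and receptors was not tested.

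Genes with folds most like those of each member were found by distance in the plane of the 2 folds, over 2 comparisons only, among named genes whose implied standard error did not exceed 0.5 in either. The limit was not applied to the members, whose implied standard errors in HC ran from 0.63 (fz3) to 0.82 (Wnt6). All distances below are smaller than these errors, so the order of neighbours is not resolved. Nearest to wg was mav, a TGF-beta type ligand, at a distance of 0.161 log2 units (its folds were 0.78 for CVM and 1.97 for HC in the authors' deposited table), followed by bl at 0.232. Wnt2 lay nearest to Gli (gliotactin, a septate junction protein), at 0.104, and to ab at 0.171. Wnt6 was nearest to pk, the planar polarity gene prickle, at 0.144, and then to Fas3 at 0.404. For fz they were Nhe2 (0.0159) and the co-repressor gene CtBP (0.0847), and for fz2 scra (0.0768) and MED6 (0.109). For fz3 they were Mio (0.0731) and Trc8 (0.108), for arr KrT95D (0.076) and sol (0.0847), for Wnt4 siz (0.0366) and hig (0.0584), and for Wnt5 sqd (0.0431) and mub (0.05).

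Wnt4, wg, Wnt6 and Wnt10, a further ligand, lie side by side on chromosome 2L. The gaps between their loci are 29.99 kb from Wnt4 to wg, 24.2 kb from wg to Wnt6 and 17.3 kb from Wnt6 to Wnt10, with 0 other genes of the table between them. From Wnt4 to Wnt10 the HC folds were 0.97, 2.10, 2.07 and 3.43 in the authors' deposited table, all above the table's median. Wnt10 had a wide implied standard error of 1.60 and a q-value of 0.128 there, and was not tested by the authors in CVM. Of the measured genes around them, ninaC had -0.06 and CG5149 -0.20 toward higher coordinates, and the bicarbonate transporter gene Ndae1 had -2.59 and CG4567 1.59 toward lower ones, in the authors' deposited table for HC.

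**Figure D3:**
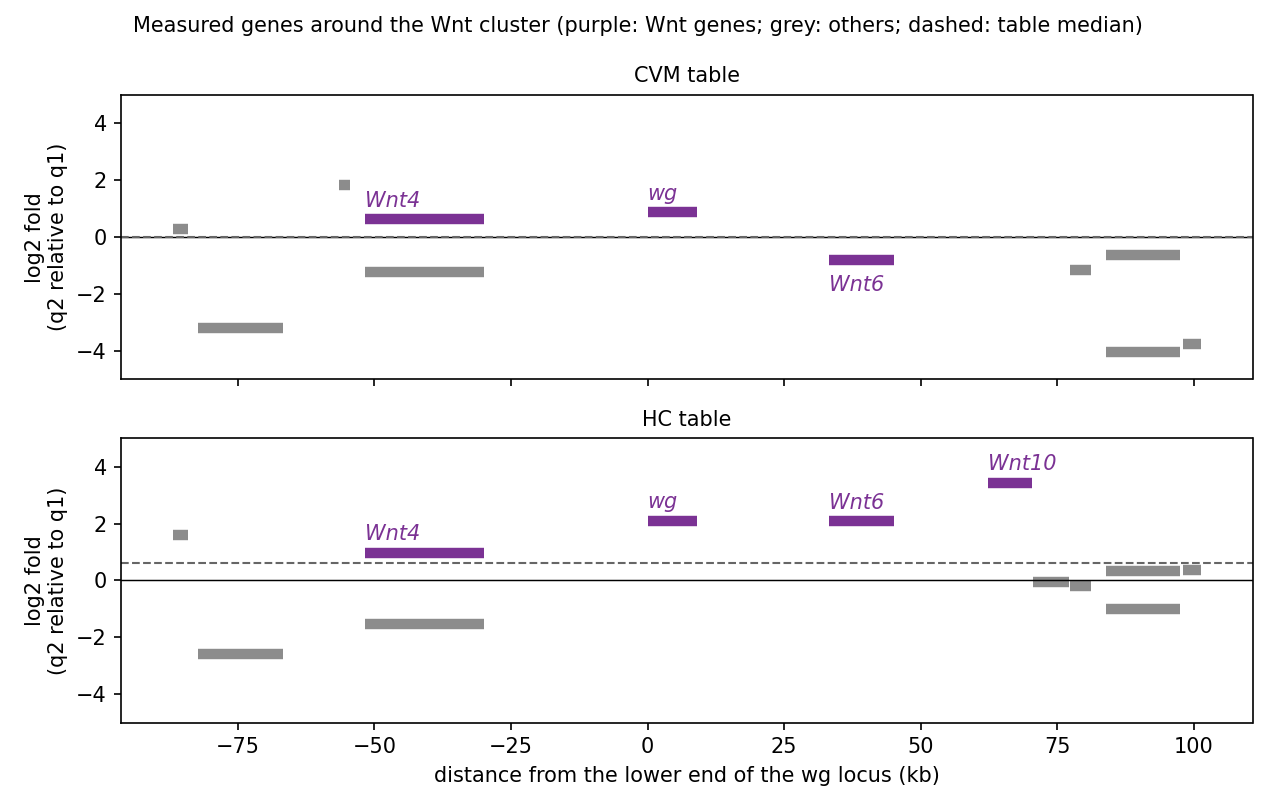
Log2 fold (vertical axis) of each measured gene within 100 kb of wg, drawn from end to end of its locus by distance from the lower end of the wg locus in kb (horizontal axis), with Wnt genes in purple. In HC the 4 Wnt genes lie above the dashed table median and in CVM Wnt6 lies below 0.

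The other components of the pathway were taken from 6 lists with 58 genes in all. The list of further ligands and receptors includes smo, which acts in Hedgehog rather than Wnt signalling. All 58 were measured in HC, where 34 (58.6%, beside 35.4% of all genes) were at least 2-fold higher in q2 and 0 in q1, or 24 and 4 (beside 16% and 22.1% of all genes) after centring on the table's median. Called there by the q-values of the authors' deposited table were 15 (25.9%, beside 6.84%) in q2 and 0 in q1. Of 54 measured in CVM, 5 (9.26%, beside 4.58% of all genes) were past 2-fold toward q2 and 2 (3.7%, beside 17.6%) toward q1. Called there in the authors' deposited table were 4 in q2, beside 0.762% of all genes, and 1 in q1, beside 8.49%. The median fold of these genes was 1.35 in HC and 0.04 in CVM.

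Most of the called genes were targets of the pathway in the embryo. In HC 12 of 12 were past 2-fold toward q2, beside 35.4% of all genes (11 when centred, beside 16%), and 9 were called, beside 6.84%, with a median of 2.17. The called genes in the authors' deposited table for HC were lbe (4.81), slou (2.92), slp1 (2.45), Ubx (2.36), slp2 (2.36), tsh (2.21), en (2.13), hh (2.13) and Dll (1.63), nearly all of them transcription factors of segment, muscle or limb patterning, with hh a secreted signal. Not called were lbl, at 2.02 (q-value 0.0642), eve and lab, at 1.35 (0.22), in the authors' deposited table for HC.

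In CVM 5 of 11 measured targets were at least 2-fold higher in q2, beside 4.58% of all genes, and 4 were called, beside 0.762%, namely slp2 (1.42), Ubx (1.36), en (1.27) and tsh (1.02) in the authors' deposited table. The exception was the homeobox gene eve, at -4.16 (q-value 1.19e-09) in CVM and 1.96 (0.0893) in HC in the authors' deposited table, the 1 pathway gene called higher in q1. Ubx and hh share their loci with other genes.

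The further ligands and receptors lay toward q2 in HC, with 7 of 9 at least 2-fold, beside 35.4% of all genes (6 when centred, beside 16%), and a median of 1.75. The receptor tyrosine kinase Ror had 2.10 and was called (q-value 0.0424), at a shared locus, and the Ryk-type receptors Drl-2 (2.09), drl (1.75) and dnt (1.61) were not, in the authors' deposited table for HC. The further Frizzled receptor fz4 (shared locus) had 0.03 in HC (-0.59 when centred) and -0.33 in CVM, and was not called, in the authors' deposited table. In CVM 0 of 7 in this list reached 2-fold and the median was -0.13. Genes for secretion and spread had medians of 0.09 in HC (-0.53 when centred) and -0.32 in CVM. The list was split in HC, with 4 of 10 at least 2-fold toward q2, beside 35.4% of all genes. When centred, 4 lay past 2-fold toward q2 and 3 toward q1, beside 16% and 22.1%. Called in HC were Notum, the enzyme that removes the lipid from Wnt proteins, at 1.94 and the heparan sulphate polymerase gene Ext2 (shared locus) at 2.05. The glypican genes dlp and dally (shared locus) had 1.70 (q-value 0.0825) and 1.69 (0.0799), and the carrier gene wls 0.13 (0.94), in the authors' deposited table for HC.

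For the relay inside the cell, cytoplasmic components had medians of 0.52 in HC (-0.10 when centred) and 0.04 in CVM, and 2 of 12 passed 2-fold toward q2 of HC, beside 35.4% of all genes, or 0 when centred. The beta-catenin gene arm had 0.13 in HC and 0.04 in CVM, and the kinase gene sgg 0.10 and 0.01, in the authors' deposited table. The kinase gene nmo (1.34, q-value 0.000871, shared locus) was the 1 call among them, in the authors' deposited table for HC. That was 8.33% of the list, close to the 6.84% of all genes called higher in q2. Apc, a scaffold of the destruction complex, lay on the q1 side of both, at -1.13 in CVM and -0.90 in HC, and was not called in the authors' deposited table. Nuclear components had medians of 0.81 in HC (0.19 when centred) and -0.01 in CVM. CtBP was called at 1.38 in the authors' deposited table for HC, where hyx had 1.37 (q-value 0.163) and pan, the factor that binds the target genes, -0.15 (0.841).

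Planar polarity genes, which share fz as their receptor, had 6 of 7 past 2-fold toward q2 of HC, beside 35.4% of all genes, or 3 when centred, beside 16%, and a median of 1.45. Of these pk (shared locus) had 1.93 (q-value 0.00175) and was called, and in (inturned) had 1.74 (0.104), in the authors' deposited table for HC. In CVM 0 of 7 reached 2-fold, the median was 0.30, and pk lay at -0.77 (q-value 0.212) in the authors' deposited table.

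**Figure D4:**
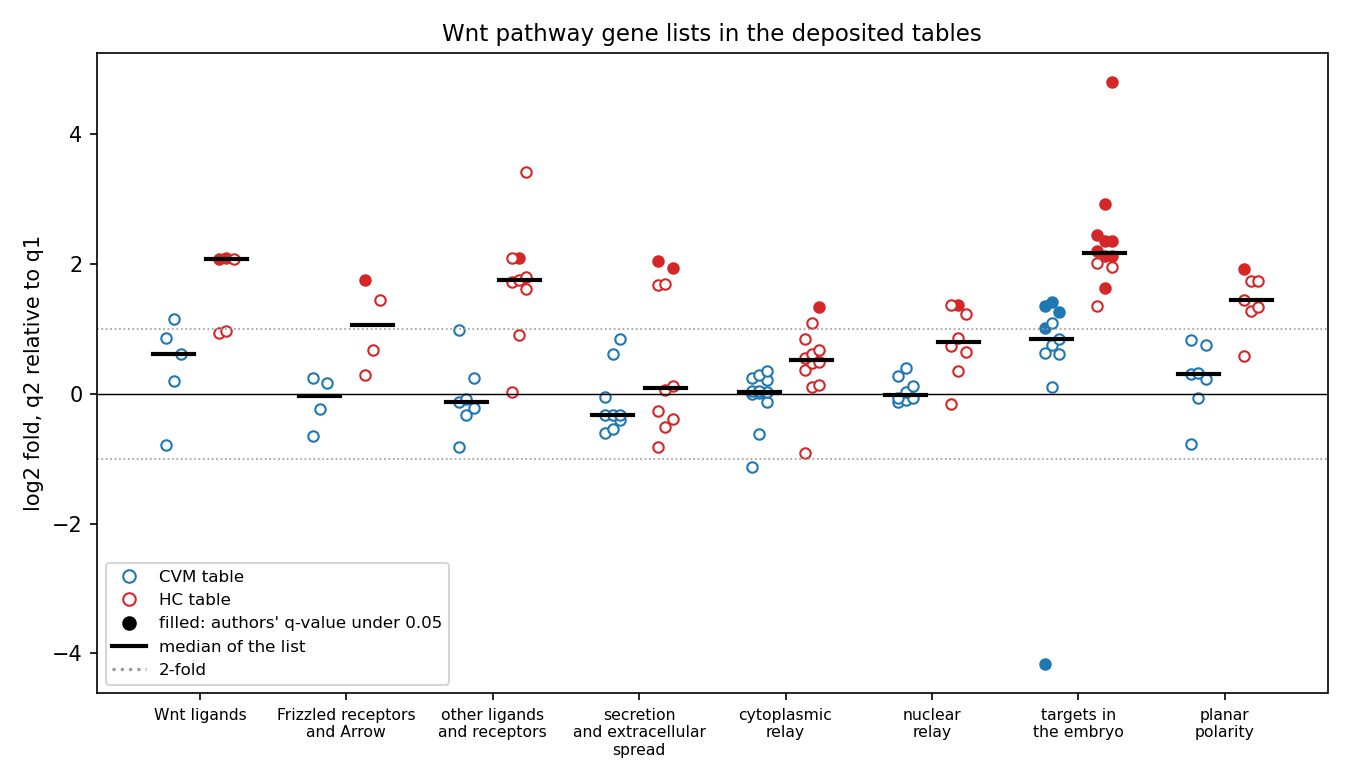
Log2 fold of q2 relative to q1 (vertical axis) for every measured member and pathway gene by list, in the CVM table (blue) and the HC table (red), with black bars for list medians and filled points for an authors' q-value under 0.05. Targets in the embryo have the highest median in both tables, 0.85 and 2.17, and eve stands alone at -4.16.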

How the data were processed

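RNA of 4 sorted populations was sequenced, 1 library each, per the labels. Cuffdiff, Cufflinks 1.3.0, TopHat 1.3.3 and Bowtie 0.12.7, and the build BDGP5, are named in the submitters' processing notes. The sources used here give no depth, read count or annotation release. The fold column, a score with infinite values written as the largest number, holds the authors' log2 (CVM) or natural log (HC) folds, per the file headers. Natural log folds were converted to log2. The p-value, q-value and test statistic are also the authors', per the file headers. In HC 568 q-values exceed 1. Columns of FPKM per condition, 4 in number, were seen on inspection for the members but entered no calculation, since q1 and q2 match no label.

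Measured genes had status OK and a finite fold (9580 genes in CVM, 10088 in HC). In HC 316 genes with fold and statistic both 0 were left out. The implied standard error is the fold divided by the statistic, whose p-value equalled the normal p within 0.001. Intervals cover 95% by that error. With 1 library per group no test was possible: a 2-fold rule and calls (authors' q-value under 0.05, a cut set here) describe 2 libraries. All 105 listed symbols matched, 3 of them through the gene ID. Starts are counted from 1. Named were the members, called pathway genes and the uncalled gene with the largest fold of each list, the nearest genes, and markers. Other pathway genes and the genes around the Wnt cluster were named after their values were seen. The members and lists were chosen with earlier results of these data known. Calculations used Python 3.11.15, pandas 2.3.3 and SciPy 1.17.1 and were tested on simulated data.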

Additional observations from a re-analysis of the deposited data

Results flagged for a closer look

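For 3 of 9 members the fold lay on the q1 side in CVM and on the q2 side in HC, as for 2346 of the 8927 genes measured in both tables. Counting opposite signs in either direction, the shares were 33.3% of members and 33.1% of all genes. The difference was not tested, since each condition had 1 library. Wnt6 had -0.79 and 2.07, a difference of 2.86 log2 units. For fz3 the folds were -0.65 and 0.29, a difference of 0.94, and for arr -0.23 and 0.67, a difference of 0.90. The intervals by implied error included 0 in both tables for fz3 and arr, and in CVM for Wnt6. After centring, fz3 lay below 0 in both tables.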

How the results depend on the processing

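No paired analysis was possible because each group has 1 library. The counts of members depended on the size rule. At 1.5-fold, 2 members were higher in q1 and 3 in q2 of CVM, and 8 in q2 of HC. At 4-fold, 0 were higher in q2 of CVM and 3 in q2 of HC. The shares of all genes at 1.5-fold and 4-fold are not given here. The median of all measured genes in HC, at 0.62, was itself past 1.5-fold toward q2. By the authors' calls in place of 2-fold, 1 pathway gene was higher in q1 of CVM and 15 in q2 of HC. Centring left the 2-fold counts of members within 1.5 times. Restricting to an implied standard error of at most 0.5 reduced the counts over all genes to 250 in q1 and 82 in q2 of CVM, and to 86 and 142 in HC. No member of HC passes that limit, so no median was obtained there. The receptor median in HC moved from 1.06 to 0.44 when centred and to 0.67 over genes with their own locus, and in CVM from -0.03 to -0.23 over the latter. Centring took the receptors past 2-fold in q2 of HC from 2 to 1. These moves, and those of the other medians of ligands and receptors, were within 1 implied standard error. That error belongs to the fold of a single gene and does not measure how stable a median is. Unknown depth and single libraries limit every value.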

Other observations

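Among 54 pathway genes measured in both tables, 17 were higher in q1 for CVM but in q2 for HC, and 1 had the reverse pair of directions, so 33.3% had opposite signs. Over all 8927 genes measured in both, 33.1% did. The Wnt pathway genes had opposite signs about as often as other genes. Counts of this kind take the sign of folds near 0 at face value.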
